A study of Mus musculus with 15 samples.

Results

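The genes described here are those whose level in leukaemic marrow lay outside everything measured in normal marrow, mature or immature. The 7 samples with acute myeloid leukaemia (AML) were set against all 8 wild-type samples together, and a protein-coding gene was taken as a member when its 7 AML values all lay above the highest, or all below the lowest, of the 8 normal values. Of 14412 protein-coding genes kept (a value of at least 10 in at least 4 samples), 856 were members above and 596 members below, 1452 in all. These are 5.94%, 4.14% and 10.1% of the kept genes. With the authors' own scaling, without TMM, 1480 genes lay above and 303 below. Members were chosen by the AML and normal values themselves, so these differences are given as a description with no test. Members are ordered by their gap, the distance on the scale of log2(value + 1) between the 2 groups' nearest values.

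The AML group was bone marrow of leukaemic mice of the transgenic genotype NUP98-NSD1/FLT3-ITD (7 samples), for which no sort of cells is named. One normal group was whole bone marrow of wild-type mice (4 samples), and the other was lineage-negative bone marrow of wild-type mice (4 samples), from which cells bearing antigens of the mature lineages have been removed. Strain, age, sex and the sequences that drive the transgenes are not given in the sources used here. For the normal mice the labels give the wild-type genotype and no treatment. Levels are normalized counts rescaled by trimmed mean of M values (TMM), without correction for gene length, so they compare samples and not genes. AML values are given as the lowest, median and highest of 7, and those of each normal group sample by sample in the order of replicates 1 to 4.

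NUP98-NSD1 joins a nucleoporin to a histone methyltransferase, and FLT3-ITD is a receptor tyrosine kinase made constantly active by an internal tandem duplication. Both are found in human AML, a disease in which myeloid precursors accumulate and the production of red cells, platelets and other lineages declines. Normal whole marrow is rich in maturing granulocytes and red cell precursors. Lineage-negative marrow is rich in stem and progenitor cells. Antigen presentation by MHC class II is a property of dendritic cells, B cells and activated macrophages, and monocytes can acquire it.

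Estimated depth was 20.3 to 35.1 M reads (M, mega) per AML library, 11.4 to 17.2 M per whole marrow library and 20.3 to 28.1 M per lineage-negative library. Whole marrow listed 7.12% to 15.7% of all genes at 0, lineage-negative marrow 35.7% to 41.0% and AML 23.6% to 41.4%, with AML 6 and AML 5 the lowest at 23.6% and 29.1%. The labels were set against defining markers. Kit, a receptor of progenitors, was 4669 to 5953 in lineage-negative and 797 to 1084 in whole marrow, and the neutrophil gene Cxcr2 was 194 to 330.5 and 6163 to 8788. No 2 libraries were identical, and their highest correlation was 0.988. The median log2 difference over all kept genes was 0.10 for AML minus whole marrow and 0.00 for AML minus lineage-negative marrow. With the deposited scaling these were 0.70 and 0.01. For gene lists, counts of members under other scalings stand beside the counts they move. Counts by size of gap, runs, promoter matches and long non-coding RNAs are given under TMM alone.

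Gaps were small above and wide below. The median gap was 0.22 above, with quartiles of 0.10 and 0.44 and a maximum of 2.21. Below it was 0.49, with quartiles of 0.19 and 1.11 and a maximum of 5.60. A gap of at least 1, that is at least a doubling between the nearest values, was found for 37 members above (4.32%) and 169 members below (28.4%). Of the members below, 41 had a gap of at least 3 and 19 of at least 4. The edge itself is finely filled: Depdc7 and Tnfaip8l1 lay just inside above, at gaps of 0.0002 and 0.0005, and Cfp and Iffo2 just outside, at −0.0005 and −0.0008. Below, Camsap2 and Erich5 lay just inside at 0.0011 and 0.0013, and the receptor genes Olfr1219 and Vmn1r191 just outside at 0. Within 0.1 of the edge there were 216 members and 303 other genes above, and 99 members and 150 other genes below.

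**Figure D1:**
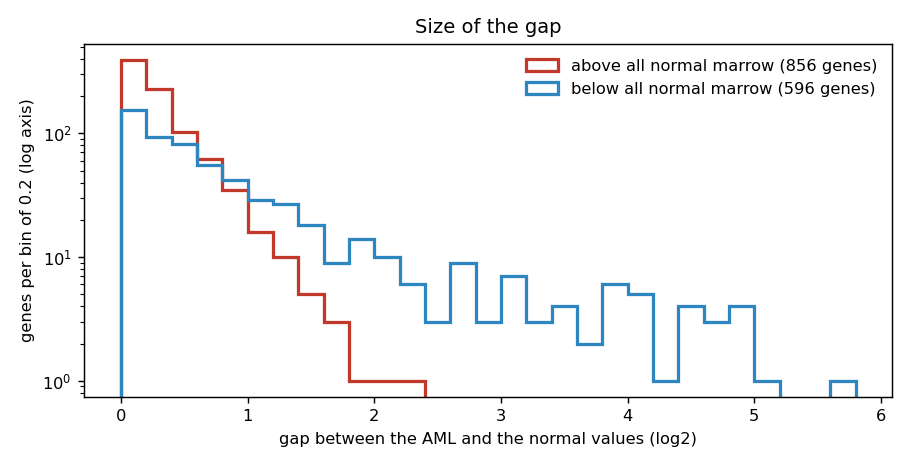
Number of members (log axis, bins of 0.2) by the gap between the nearest AML and normal values on the log2(value + 1) scale. The 856 members above end at 2.21, while the 596 members below reach 5.60.

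The members with the widest gap above were led by Shtn1, Batf3 and Ms4a4a. Shtn1 encodes shootin 1, a protein known from axon outgrowth. Its level was 587, 905.5 and 1297 in AML, 120.4, 116, 126 and 118 in whole marrow and 57.8, 7.82, 20.5 and 32.96 in lineage-negative marrow, a gap of 2.21. Its mean ± SD was 915 ± 259 over the 7 AML samples, 119.9 ± 4.32 over the 4 whole marrows and 29.8 ± 21.3 over the 4 lineage-negative marrows. Batf3, a transcription factor required for cross-presenting dendritic cells, was 51.7, 112 and 482 in AML against 7.08, 10.9, 5.13 and 11.5 in whole and 3.31, 3.13, 3.15 and 1.77 in lineage-negative marrow. For Ms4a4a, a membrane protein of macrophages, AML held 102, 198 and 542, whole marrow 12.4, 18.8, 17.96 and 27.9 and lineage-negative marrow 8.26, 0, 0 and 0.589. The AML values of these genes did not touch the normal ones but spread widely: AML 3 held the highest Batf3 and AML 1 the highest Ms4a4a. In bulk marrow, fewer cells of a type and less RNA per cell cannot be told apart, and the same holds for more.

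The lysosomal serine carboxypeptidase Scpep1 was 1709, 2186 and 2957 in AML, 559.5, 586, 608 and 562 in whole and 468, 512, 324 and 394 in lineage-negative marrow. Scpep1 varied little in AML, its highest value being less than double its lowest. Itgb7, the integrin beta 7 chain of gut-homing receptors, was 6320, 8935 and 12325 in AML, 2084, 2496, 2025 and 2156 in whole marrow and 2468, 1651, 1336 and 1423 in lineage-negative marrow, and its highest normal value came from whole marrow 2. The order passes over 2 predicted genes without a name.

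**Figure D2:**
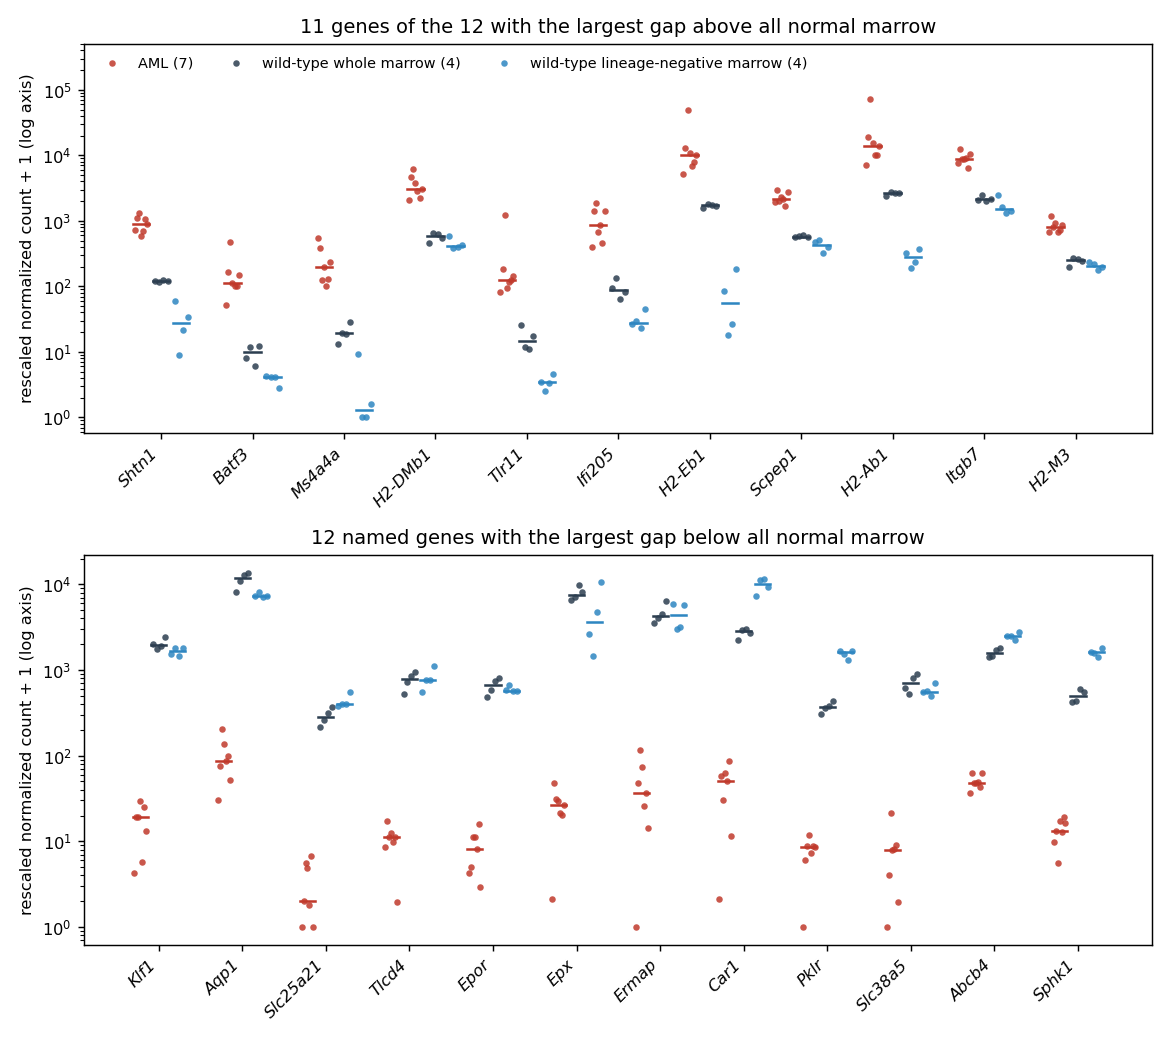
Rescaled normalized counts plus 1 (log axis) of 11 genes among the 12 named ones with the widest gap above (upper panel) and of the 12 with the widest gap below all normal marrow (lower panel). Each point is 1 sample and each bar a group median; the gaps run from 1.30 to 2.21 above and from 4.45 to 5.60 below.

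MHC class II presentation was the list with the largest share of members above among lists of at least 5 kept genes: 7 of the 11 listed genes, with none below. The 7 are H2-DMb1, H2-Eb1, H2-Ab1, H2-Aa, Ciita, H2-DMa and Cd74, the last 3 named after their values were seen. Over all 11 genes the median AML minus whole marrow difference was 2.12, beside 0.10 for all kept genes, and the count was 7 under the deposited and quantile scalings too. H2-Ab1 and H2-Aa encode the chains of I-A and H2-Eb1 the beta chain of I-E, the molecules that show peptides to helper T cells. H2-Eb1 was 5141, 10030 and 49266 in AML, 1542, 1805, 1770 and 1700 in whole marrow and 85.1, 17.2, 25.2 and 181 in lineage-negative marrow. H2-Aa was 8184, 17275 and 78665 in AML, 2617, 3438, 3660 and 3591 in whole and 179, 43.8, 67.7 and 237 in lineage-negative marrow. H2-Ab1 was 7232, 13969 and 71881 in AML, 2376, 2777, 2622 and 2654 in whole and 325, 189, 231 and 369 in lineage-negative marrow. For all 3 chains AML 3 was highest by far and AML 1 lowest, and whole marrow always lay between AML and lineage-negative marrow.

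The genes that serve these chains stood with them. H2-DMb1 and H2-DMa form the molecule that loads peptides. H2-DMb1 was 2097, 3007 and 6222 in AML, 453.5, 642, 625 and 543 in whole and 578, 389, 399 and 426 in lineage-negative marrow, and H2-DMa had a gap of 1.03. Ciita, the transactivator that controls class II transcription, was 1300, 1622 and 8857 in AML, 547, 444, 579.8 and 583 in whole and 39.6, 8.60, 33.05 and 64.7 in lineage-negative marrow. Cd74, the invariant chain that guides class II molecules through the cell, was 14613, 26536 and 128741 in AML, 5381, 7309, 7409 and 7808 in whole and 442, 62.6, 146 and 847 in lineage-negative marrow. The normal marrows differed by gene: for Cd74 and Ciita every lineage-negative value lay below every whole marrow value, while H2-DMa reached 1183 in lineage-negative and 889.5 in whole marrow.

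The summed class II list took 1651, 3692, 14867, 2974, 3017, 2485 and 3955 ppm (parts per 1000000 of the library's normalized counts) in AML 1 to 7, 737 to 895 in whole marrow and 135 to 206 in lineage-negative marrow. Cells that normally carry class II were measured by their own lists. The B cell list summed to 5381 ppm in AML 3 and to 618 to 1226 in the other AML samples, against 1853 to 2265 in whole marrow. Cd79a, a chain of the B cell receptor complex, was 78.1 in AML 1 and 1135 in AML 3, under the 1206 to 1518 of whole marrow. The monocyte and macrophage list summed to 5266 to 9036 ppm, over the 3194 to 3746 of whole marrow in every sample.

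The summed dendritic list depended on 1 gene. With all 20 genes it was 855 to 1898 ppm in AML, under the 2154 to 2413 of whole marrow in every sample. Cd24a, a surface protein that red cell precursors and B cells also carry, was 5524 to 11409 in AML and 37532 to 41139 in whole marrow. Without Cd24a, a choice made after seeing the data, the other 19 genes summed to 443 ppm in AML 6 and to 767 to 1619 in the other AML samples, against 436 to 495 in whole marrow. Over the 20 genes 2 lay above and none below (3 above with the deposited and 3 with quantile scaling). Their median AML minus whole marrow difference was 0.79 on the log2 scale. Xcr1, the chemokine receptor of cross-presenting dendritic cells, was 1135 in AML 3 and 56.1 to 151 in the other AML samples, against 21.9 to 69.05 in whole marrow. Cd209a, a lectin of dendritic cells and monocytes, was 4812 in AML 3 and 12.5 to 1625 in the others, against 185 to 225 in whole marrow. Zbtb46, a transcription factor of dendritic cells, was 1221 in AML 3 and 149.5 to 399 in the others, against 164 to 233.5 in whole marrow. AML 3 was thus highest in these 3 markers, and also in Clec9a, at 943.5. Siglech, another gene of dendritic cells, went the other way. It was 167 in AML 3 and 51.3 to 1961 in the other AML samples, against 602 to 790 in whole marrow. The part of these cell types in the class II values was not tested. The gaps of H2-Eb1, H2-Ab1, H2-Aa, H2-DMb1, Ciita and Cd74 are set by AML 1, and that of H2-DMa by AML 6, so they are the same without AML 3.

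**Figure D3:**
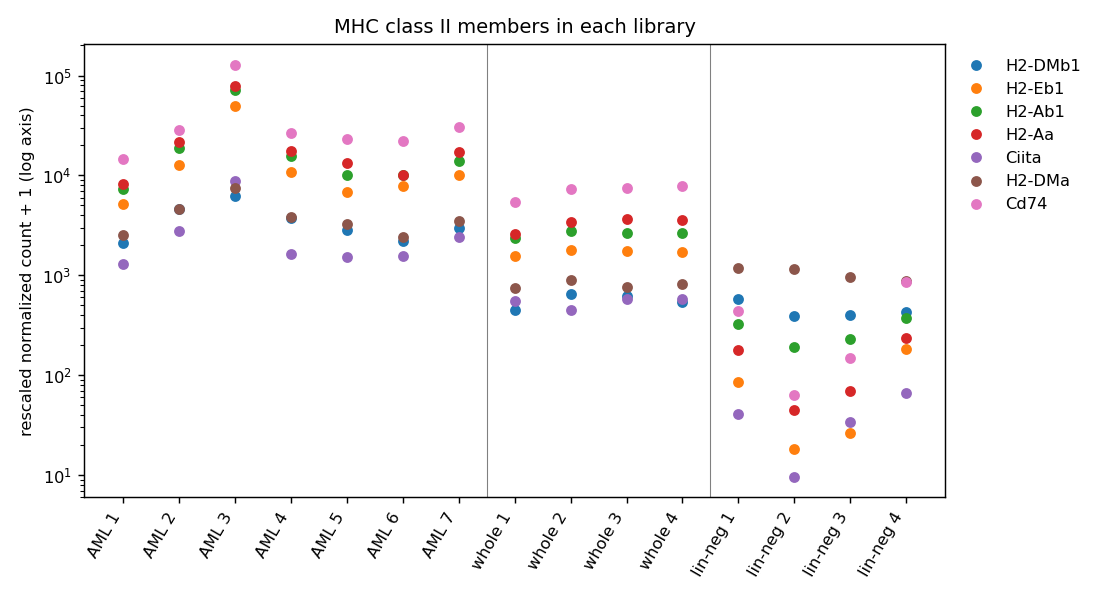
Rescaled normalized counts plus 1 (log axis) of the 7 class II members in each of the 15 libraries; each point is 1 gene. Every AML library exceeds every normal library for each gene, and AML 3 carries the highest values, up to 128741 for Cd74.

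Promoters of 3 class II members are shown because class II promoters are known for a shared upstream module, which ends in an inverted CCAAT (the Y box). Of the 7 members 4 had a RefSeq window, and the 3 shown are those with the motif; H2-DMa had none in its window. Each line holds the 250 bases before the transcription start in RefSeq (GRCm38.p6), 5′ to 3′ on the gene's strand, with CCAAT or its complement ATTGG in capitals. H2-DMb1 lies at chr17:34152941-34153190 on the plus strand, H2-Eb1 at chr17:34305617-34305866 on the plus strand and H2-Aa at chr17:34287824-34288073 on the minus strand.
H2-DMb1: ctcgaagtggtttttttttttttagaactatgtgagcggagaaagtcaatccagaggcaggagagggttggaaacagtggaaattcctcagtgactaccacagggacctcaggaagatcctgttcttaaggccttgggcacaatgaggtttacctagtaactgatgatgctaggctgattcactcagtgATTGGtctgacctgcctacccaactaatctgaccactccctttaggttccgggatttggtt
H2-Eb1: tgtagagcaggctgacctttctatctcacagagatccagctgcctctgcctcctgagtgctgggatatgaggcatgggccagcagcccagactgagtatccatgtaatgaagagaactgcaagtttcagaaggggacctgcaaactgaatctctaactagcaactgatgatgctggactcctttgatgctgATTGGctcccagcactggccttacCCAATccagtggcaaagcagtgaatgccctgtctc
H2-Aa: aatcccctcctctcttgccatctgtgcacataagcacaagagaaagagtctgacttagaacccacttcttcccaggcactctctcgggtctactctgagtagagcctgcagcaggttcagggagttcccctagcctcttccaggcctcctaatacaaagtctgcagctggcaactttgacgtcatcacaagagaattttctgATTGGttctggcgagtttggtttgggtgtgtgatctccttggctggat
H2-Eb1 holds 2 matches and each of the others 1. A match describes letters and is not evidence of binding.

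MHC class I genes and their peptide supply gave 12 members above of 19 listed, and none below. Between the normal groups 1 of these 19 genes was called different (limma, adjusted p under 0.05 and a log2 difference of at least 1), where 15.6% of all kept genes were higher in lineage-negative marrow and 25.4% lower, with a median log2 difference of 0.32 for lineage-negative minus whole marrow. H2-M3, which presents formylated peptides, was 668, 803 and 1176 in AML, 196.5, 270.4, 258 and 239 in whole and 233, 219, 177 and 195 in lineage-negative marrow. H2-T22, a non-classical class I molecule, was 1701, 1971 and 3604 in AML, 626.5, 907, 954 and 845 in whole and 660.0, 836, 693 and 582 in lineage-negative marrow. Tap1, a subunit of the pump that carries peptides into the endoplasmic reticulum, was 4607, 5733 and 8927 in AML, 1628, 2070, 2143 and 1903 in whole and 2626, 2729, 2550 and 2366 in lineage-negative marrow, and here the nearest normal sample was a lineage-negative one. Tapbp, the tapasin that holds class I molecules at the pump, had a gap of 0.66, and Psmb9 and Psmb8, subunits of the immunoproteasome, gaps of 0.58 and 0.29. The highest AML values of H2-T22, Tap1 and Psmb9 were in AML 2, and AML 6 came second. The count was 13 with the deposited and 12 with quantile scaling.

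Interferon-stimulated genes gave 11 members above of 42 and none below. The count was 16 with the deposited scaling and 7 with quantile scaling, which also placed 1 gene below. Ifi205, of the family of interferon-inducible nuclear DNA sensors, was 399.8, 868 and 1844 in AML, 92.9, 134, 63.6 and 80.97 in whole and 25.5, 28.5, 21.8 and 44.1 in lineage-negative marrow. Stat2, a transcription factor of type I interferon signalling, was 1221, 1430 and 3149 in AML, 621.5, 600.1, 729.9 and 689.6 in whole and 520.5, 371, 410.0 and 407 in lineage-negative marrow. Zbp1, a sensor of Z-form nucleic acids, was 498, 862 and 2080 in AML, 150.5, 334, 327 and 269 in whole and 38.8, 46.9, 48.8 and 54.1 in lineage-negative marrow, so AML exceeded whole marrow least in AML 3. Dhx58, a helicase of the RNA-sensing family, had a gap of 0.33. AML 2 was the highest AML sample for Stat2, Zbp1 and Dhx58. Summed over the list, AML held 1496 to 4454 ppm and whole marrow 1840 to 2153, so the sums overlapped and AML 3 was the lowest.

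Promoters of 3 members above are shown with the interferon-stimulated response element searched as GAAA, any 2 bases and GAAA, on both strands. The element is known from promoters of interferon-stimulated genes. Ifi205 lies at chr1:174031756-174032005 on the minus strand, Tlr11 at chr14:50357664-50357913 on the plus strand and Ctss at chr3:95526536-95526785 on the plus strand, again 250 bases before the start in GRCm38.p6 with the match in capitals.
Ifi205: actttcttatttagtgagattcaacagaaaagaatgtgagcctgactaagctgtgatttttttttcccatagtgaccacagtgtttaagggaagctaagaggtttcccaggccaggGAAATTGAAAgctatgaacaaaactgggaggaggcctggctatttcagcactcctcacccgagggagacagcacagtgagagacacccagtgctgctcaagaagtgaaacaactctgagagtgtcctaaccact
Tlr11: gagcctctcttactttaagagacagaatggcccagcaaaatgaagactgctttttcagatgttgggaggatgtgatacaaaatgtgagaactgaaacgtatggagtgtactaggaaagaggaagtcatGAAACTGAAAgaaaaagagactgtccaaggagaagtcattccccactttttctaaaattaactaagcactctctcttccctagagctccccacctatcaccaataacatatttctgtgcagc
Ctss: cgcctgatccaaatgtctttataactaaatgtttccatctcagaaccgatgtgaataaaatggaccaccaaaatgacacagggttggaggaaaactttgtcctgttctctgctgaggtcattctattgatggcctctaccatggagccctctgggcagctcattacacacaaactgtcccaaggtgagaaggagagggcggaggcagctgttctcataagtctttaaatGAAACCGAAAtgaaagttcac
Each of the 3 holds 1 match, and they were printed because they have the motif, so they say nothing of how often it occurs.

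Pattern recognition was next, with 10 members above of 18 genes of the Toll-like receptor list and none below (13 with the deposited, 9 with quantile scaling). Tlr11, an endosomal receptor of rodents for microbial proteins, was 82.5, 125 and 1209 in AML, 24.8, 10.9, 10.3 and 16.4 in whole and 2.48, 1.56, 2.36 and 3.53 in lineage-negative marrow. Tlr3, the receptor for double-stranded RNA, was 69.3, 111 and 838 in AML, 35.4, 21.9, 24.4 and 34.4 in whole and 4.13, 2.35, 4.72 and 9.42 in lineage-negative marrow. For both, AML 3 stood far above the other AML samples. Tlr7, the receptor for single-stranded RNA, was 680.2, 991 and 1545 in AML, 287, 428, 335 and 365 in whole marrow and 32.2, 56.3, 39.4 and 34.7 in lineage-negative marrow. Unc93b1, the chaperone that brings these receptors to endosomes, was 6694, 8350 and 10672 in AML, 3679, 4195, 3651 and 3602 in whole and 3613, 2764, 1941 and 2207 in lineage-negative marrow. Tlr11 and Tlr3 had gaps of 1.69 and 0.95, wider than the 0.67 of Tlr7 and the 0.67 of Unc93b1. Inflammasome genes were also members: Mefv (pyrin), Pycard (the adaptor ASC), Casp1 and Gsdmd, the pore-forming gasdermin, had gaps of 0.76, 0.75, 0.20 and 0.36. In all, 6 of 22 genes of the inflammatory list were above and 1 below (7 and 1 with the deposited, 5 and 2 with quantile scaling).

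Lysosomal genes gave 15 members above of 30 and 1 below (19 above with the deposited, 13 with quantile scaling). Ctss, cathepsin S, the protease that trims the invariant chain, was 11098, 15451 and 21665 in AML, 4017, 4668, 3816 and 3394 in whole and 1345, 679, 495 and 811 in lineage-negative marrow. Psap, the precursor of the saposins, was 63563, 95044 and 113130 in AML, 23225, 34076, 28396 and 27922 in whole and 16421, 11616, 8004 and 9410 in lineage-negative marrow. Ctsa, a carboxypeptidase that protects other lysosomal enzymes, was 4319, 5702 and 7435 in AML, 2132, 2274, 2228 and 1797 in whole and 2007, 1901, 1399 and 1720 in lineage-negative marrow. The AML values of these genes were close to each other, with AML 6 the lowest for Psap and Ctsa. Npc2, a cholesterol carrier of the lysosome, had a gap of 0.79.

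Surface receptors of monocytes and macrophages formed a broad group. Members above were 7 of 30 genes of the monocyte and macrophage list, 5 of 13 of the Ms4a family, 4 of 18 C-type lectins, 3 of 5 genes of the Sirp and Cd47 list and 3 of 6 Fc receptor genes. In the same order the counts were 8, 5, 5, 3 and 3 with the deposited and 7, 5, 4, 2 and 2 with quantile scaling. Ccr2, the chemokine receptor that brings monocytes out of marrow, was 15527, 27955 and 33707 in AML, 7082, 8823, 9914 and 6362 in whole and 2485, 3026, 2283 and 2998 in lineage-negative marrow. Fn1, fibronectin, was 20632, 38153 and 67880 in AML, 11762, 11287, 9839 and 11861 in whole and 4257, 414, 681 and 2039 in lineage-negative marrow. Csf1r, the receptor for the macrophage growth factor, was 4341, 10443 and 12705 in AML, 2603, 3264, 2803 and 3178 in whole and 3498, 2699, 1831 and 2334 in lineage-negative marrow. Csf1r owed its narrow gap of 0.31 to AML 6 alone, since every other AML sample was at 9364 or more. Ms4a6c, Ms4a6b and Ms4a4c had gaps of 1.03, 0.83 and 0.72.

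Clec4a1, a lectin receptor of myeloid cells, was 474, 780.0 and 933 in AML, 126, 242, 215.5 and 193 in whole and 35.5, 3.13, 0.787 and 4.71 in lineage-negative marrow. Clec10a, a galactose-type lectin of macrophages and dendritic cells, was 461, 1356 and 2883 in AML, 227, 201, 235.5 and 183 in whole and 143, 114, 79.7 and 121 in lineage-negative marrow. Sirpb1c, a receptor of the signal regulatory family, was 1397, 1553 and 3016 in AML, 520.3, 885, 709.8 and 541 in whole and 8.52, 0, 2.29 and 3.04 in lineage-negative marrow. Clec4a1 and Sirpb1c were near the floor of 3 reads (1.77 to 5.31 after rescaling, by library) in most lineage-negative samples, so whole marrow set their edge. Fcgr2b, the inhibitory receptor for IgG, and Fcgrt, the receptor that recycles IgG, had gaps of 0.70 and 0.38. Itgax, the integrin alpha chain of Cd11c, was 585, 1344 and 5145 in AML, 295, 318, 279 and 307 in whole and 173, 78.99, 110.2 and 118 in lineage-negative marrow, with AML 3 highest. Clec4a1, Clec4a3 and Clec4b1, Sirpb1a and Sirpb1c, the Ms4a genes and the class I genes have close relatives, and how reads were shared out among them is uncertain.

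Receptors of cytokines were split. Of 33 listed, 8 lay above and 3 below (16 and 1 with the deposited, 6 and 3 with quantile scaling). Tnfrsf1b, a receptor for tumour necrosis factor, was 3320, 5007 and 6502 in AML, 1254, 2547, 2023 and 2498 in whole and 1665, 1098, 1044 and 952 in lineage-negative marrow. Il6ra and Ifngr1, chains of the receptors for interleukin 6 and interferon gamma, had gaps of 0.31 and 0.30. The receptors below were those of other lineages and are led by Epor. Of 14 listed STAT5 targets, Socs2 and Cish lay above (14.3%, beside 5.94% of all kept genes) and none below. Both are feedback inhibitors of cytokine signalling. FLT3-ITD is known to activate STAT5, but its part in these values was not tested. Socs2 was 147, 716.5 and 1089 in AML, 118, 51.6, 80.8 and 80.2 in whole and 22.3, 25.03, 16.5 and 42.8 in lineage-negative marrow. Cish was 113, 159.5 and 261 in AML, 79.5, 92.2, 98.8 and 86.8 in whole and 47.9, 64.1, 63.7 and 48.9 in lineage-negative marrow. AML 5 held the highest Socs2 and AML 6 the lowest, so the gap of 0.31 rests on AML 6.

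Transcription factors of the myeloid list gave 7 members above and 1 below of 24 (10 and 1 with the deposited, 6 and 1 with quantile scaling). Irf5, an interferon regulatory factor that drives inflammatory genes, was 3155, 4810 and 5782 in AML, 1472, 1740, 1513 and 1417 in whole and 695, 432, 301 and 384 in lineage-negative marrow. Klf4, a factor of monocyte differentiation, was 1671, 2771 and 3581 in AML, 899.5, 872, 816 and 673 in whole and 958, 553, 431 and 561.5 in lineage-negative marrow. Both were higher in every AML sample by a clear margin, and AML 6 was lowest. Atf3, a stress-induced factor, was 232, 371 and 439.9 in AML, 93.8, 87.5, 82.1 and 65.5 in whole and 114, 18.8, 83.4 and 60.6 in lineage-negative marrow. Batf had a gap of 0.38, with 1246 in AML 6 and 290.4 to 519 in the other AML samples.

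Members above were also found among regulators of cell death and immune checkpoints. Of 16 genes of the BCL2 family, 4 lay above (25%, beside 5.94% of all kept genes) and none below. With the deposited scaling 6 lay above and with quantile scaling 5. Bcl2a1d, an anti-apoptotic member with several near-identical copies, was 47.8, 128 and 1037 in AML, 15.7, 17.8, 32.8 and 29.8 in whole and 7.91, 1.68, 4.08 and 5.72 in lineage-negative marrow. The pro-apoptotic Bmf, Pmaip1 (Noxa) and Bad had gaps of 0.37, 0.36 and 0.080. Of 16 checkpoint genes, Pdcd1, Havcr2 and Tigit lay above (18.8%), and the count was 6 with the deposited and 4 with quantile scaling. Pdcd1, which encodes PD-1, was 36.6, 124.5 and 1131 in AML, 8.85, 4.69, 12.8 and 16.4 in whole and 0.826, 5.47, 1.57 and 8.83 in lineage-negative marrow. Tigit was 7.16, 52.1 and 431 in AML, 5.31, 4.69, 3.85 and 4.91 in whole and 4.13, 0, 0.787 and 1.77 in lineage-negative marrow, so few reads set its edge. Havcr2, which encodes TIM-3, was 101, 213 and 1094 in AML, 69.05, 73.5, 47.5 and 47.5 in whole and 11.6, 25.03, 14.9 and 35.9 in lineage-negative marrow. AML 6 held the highest Pdcd1 and Tigit and AML 3 the highest Havcr2. The list of T and NK cell genes summed to 516 ppm in AML 6, 448 in AML 3 and 117 to 289 in the other AML samples, against 163 to 191 in whole marrow, and its part in these values was not tested.

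**Figure D4:**
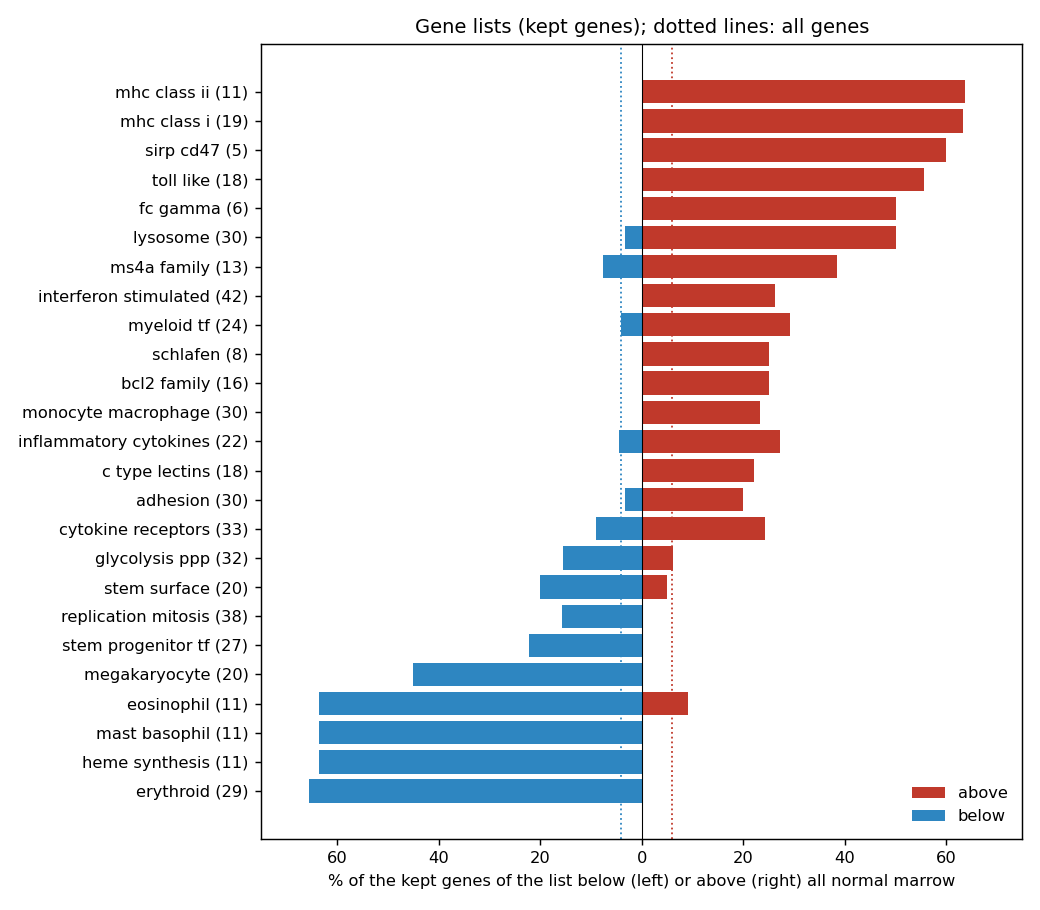
Share of the kept genes of each list (number in parentheses) that lay above (right, %) or below (left, %) all normal marrow, for lists of at least 5 kept genes with at least 20% above or 15% below. Dotted lines mark the 5.94% and 4.14% of all kept genes; MHC class II stands at 63.6% above and the erythroid list at 65.5% below.

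Several lists held no member, beside 10.1% of all kept genes. None of 5 kept Hoxa genes, 4 Hoxb genes, 11 genes of their TALE partners, 26 Polycomb genes, 14 DNA methylation genes, 29 nuclear pore genes or 99 ribosomal protein genes lay outside the normal range. In lists as short as those of the Hoxa and Hoxb genes, no member is near the share of all genes. On the menin, KMT2A and DOT1L list 1 of 18 genes lay below, and with the deposited scaling 1 lay above and none below. With the deposited scaling 2 Polycomb genes, 1 DNA methylation gene and 1 ribosomal protein gene lay above, and with quantile scaling 3 Polycomb genes and 1 nuclear pore gene lay below. Flt3 was 803, 2764 and 4138 in AML, above whole marrow at 319 to 391.5 in every sample, but it overlapped lineage-negative marrow at 1189 to 1761. Hoxa9, a homeobox gene raised in many leukaemias, was 58.8, 121 and 191 in AML, within the span from 47.5 in whole to 418 in lineage-negative marrow. Meis1, its partner, was 144, 213 and 337.5 against 199 to 255 in whole and 674 to 1122 in lineage-negative marrow. Hoxa7, Hoxa10, Nup98 and Nsd1 also overlapped the normal values. The sources used here do not say whether transgene reads were counted under the mouse genes. None of the 11 primary granule, 17 secondary granule and 22 mature neutrophil genes was a member. With the deposited scaling 1 primary granule gene lay above, and with quantile scaling 1 secondary granule gene did. All 22 mature neutrophil genes were lower in lineage-negative than in whole marrow (limma), which leaves a wide normal range.

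Among members below, the red cell lineage came first: 19 of 29 erythroid genes and 7 of 11 genes of haem synthesis lay below all normal marrow, and none above, under all 3 scalings. Klf1, the transcription factor that switches on adult red cell genes, was 3.30, 18.1 and 28.8 in AML, 2011, 1778, 1910 and 2431 in whole marrow and 1544, 1815, 1448 and 1798 in lineage-negative marrow. The mean ± SD of Klf1 was 15.6 ± 9.45 over the 7 AML samples, 2033 ± 282 over the 4 whole marrows and 1651 ± 184 over the 4 lineage-negative marrows, and its gap of 5.60 was the widest of all members. Gata1, the factor of red cells, platelets, eosinophils and mast cells, was 4.40, 19.5 and 38.7 in AML, 848, 989, 1099 and 1271 in whole and 1543, 1436, 1307 and 1539 in lineage-negative marrow. Tal1, its partner, was 55.4, 96.8 and 212 in AML, 2424, 2744, 3275 and 3754 in whole and 2434, 2526, 2377 and 2556 in lineage-negative marrow. The normal groups were near each other in these factors, and AML lay far beneath both. Zfpm1, the cofactor FOG-1, had a gap of 1.96, with AML 6 highest at 492.

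Receptors, channels and enzymes of red cell precursors followed. Epor, the erythropoietin receptor, was 1.90, 7.16 and 14.8 in AML, 482, 578, 753 and 814 in whole and 579.9, 662.5, 571 and 561.5 in lineage-negative marrow. For Aqp1, the water channel of the red cell membrane, levels were 29.7, 85.9 and 206 in AML, 8104, 11029, 12841 and 13569 in whole and 7385, 8161, 7065 and 7286 in lineage-negative marrow. Ermap, a membrane protein of erythroblasts, was 0, 35.3 and 115 in AML, 3584, 4015, 4563 and 6428 in whole and 5979, 2973, 3201 and 5679 in lineage-negative marrow. Even the highest AML value was below every normal value by a wide margin, and AML 3 was highest for Aqp1 and Ermap. Car1, the early red cell carbonic anhydrase, was 1.10, 49.3 and 86.6 in AML, 2233, 2971, 3044 and 2686 in whole and 7411, 11185, 11476 and 9246 in lineage-negative marrow. Pklr, the pyruvate kinase of red cells and liver, was 0, 7.61 and 10.9 in AML, 302, 361, 379 and 436 in whole and 1660, 1554, 1304 and 1669 in lineage-negative marrow. Car1 and Pklr were higher in lineage-negative than in whole marrow, so whole marrow set the edge, and both were under the floor in AML 1.

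Gaps were narrower in haem synthesis. Alad, the enzyme of its second step, was 150.3, 198 and 293 in AML, 1395, 1752, 2132 and 2033 in whole and 1279, 1189, 1085 and 1121 in lineage-negative marrow. Cpox and Urod, enzymes of later steps, had gaps of 1.77 and 0.88. AML kept 150 to 645 counts of Alad, Cpox and Urod, and lineage-negative marrow set their edge. The late genes were different: Hbb-bs, Hba-a1 and Alas2 were far lower in AML than in whole marrow but overlapped lineage-negative marrow, with Alas2 at 4.74, 78.3 and 534 in AML, while lineage-negative marrow held 29.96 to 604, so they are not members. Summed over the erythroid list, AML held 286 to 1580 ppm, whole marrow 81292 to 119662 and lineage-negative marrow 2900 to 5065.

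The GATA motif AGATAA (complement TTATCT) is shown in 2 promoters of this group, which were chosen because they hold it. The windows of Klf1, Aqp1 and Gata1 itself hold none. Epor lies at chr9:21963577-21963826 on the minus strand and Pklr at chr3:89135892-89136141 on the plus strand, 250 bases before the start in GRCm38.p6 with the match in capitals.
Epor: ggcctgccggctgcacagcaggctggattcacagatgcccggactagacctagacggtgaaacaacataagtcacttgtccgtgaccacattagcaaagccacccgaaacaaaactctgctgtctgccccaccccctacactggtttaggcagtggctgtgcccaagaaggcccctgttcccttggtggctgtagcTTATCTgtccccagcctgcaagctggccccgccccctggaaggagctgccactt
Pklr: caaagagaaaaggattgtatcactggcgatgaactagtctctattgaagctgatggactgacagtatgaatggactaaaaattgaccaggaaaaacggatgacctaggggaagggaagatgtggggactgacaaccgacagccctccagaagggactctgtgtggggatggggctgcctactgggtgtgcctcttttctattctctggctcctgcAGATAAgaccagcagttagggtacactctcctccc
Each holds 1 match. For Pklr, 2 starts are listed and the bases before 1 of them are shown.

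Eosinophil genes were the next group, with 7 of 11 below and 1 above (6 below with the deposited, 8 with quantile scaling). Epx, eosinophil peroxidase, was 1.10, 25.7 and 47.5 in AML, 6556, 7061, 9826 and 8111 in whole and 2635, 1440, 4707 and 10566 in lineage-negative marrow. Ear1 and Ear6, ribonucleases of eosinophil granules which are close relatives with uncertain read assignment, had gaps of 3.94 and 4.19. Prg2, the major basic protein, was 236, 288 and 1127 in AML, 24827, 31438, 34971 and 30071 in whole and 8645, 4198, 11816 and 17128 in lineage-negative marrow, and Prg3, its relative, had a gap of 3.21. AML 2 was the highest AML sample for Epx and Prg2. Within lineage-negative marrow, replicate 4 was the highest for Epx, Ear1 and Ear6.

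Mast cell and basophil genes lay below in 7 of 11 (3 with the deposited, 7 with quantile scaling) and none above. Cpa3, the carboxypeptidase of mast cell granules, was 21.5, 73.2 and 189 in AML, 503, 552, 553 and 519 in whole and 1787, 2443, 2997 and 1939 in lineage-negative marrow. Ms4a2, the beta chain of the high-affinity IgE receptor, was 12.4, 39.7 and 132 in AML, 425, 486, 454 and 419 in whole and 1475, 1839, 2331 and 1520 in lineage-negative marrow. Mcpt8, the basophil protease, was 57.7, 228 and 582 in AML, 1236, 2115, 1705 and 1545 in whole and 7029, 6689, 8861 and 4875 in lineage-negative marrow. All 3 were highest in lineage-negative marrow, so whole marrow set the edge, and AML 3 was the lowest AML sample for each. Mcpt8 was no longer outside the range with the deposited scaling, at a gap of −0.14. Cd200r3 had a gap of 1.85.

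Megakaryocyte genes were below in 9 of 20 and above in none (6 below with the deposited, 9 with quantile scaling). Gp5, a chain of the platelet receptor for von Willebrand factor, was 1.90, 7.92 and 18.2 in AML, 70.8, 109, 59.01 and 103 in whole and 197, 238.5, 275 and 247 in lineage-negative marrow. Itga2b, the integrin alpha IIb chain, was 35.2, 95.7 and 218 in AML, 482, 683, 657 and 579.9 in whole and 2566, 1947, 2376 and 1416 in lineage-negative marrow, and its gap turned to −0.08 with the deposited scaling. Gfi1b, a repressor shared by red cells and megakaryocytes, was 12.5, 23.8 and 37.3 in AML, 567, 594, 866 and 845 in whole and 972, 1176, 1140 and 1388 in lineage-negative marrow. Gfi1b was separated far more widely than the platelet genes. Rab27b and Nrgn had gaps of 1.34 and 1.11. Of the stem and progenitor transcription factors, 6 of 27 lay below and none above (4 below with the deposited, 6 with quantile scaling). The widest gaps among them were those of Klf1, Gata1, Tal1 and Zfpm1.

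Replication and mitosis genes depended on the scaling. With TMM 6 of 38 lay below and none above; with the deposited scaling none lay below, and with quantile scaling 9 did. Cdc6, which loads the replicative helicase, was 369, 741 and 823 in AML, 1423, 1583, 1779 and 1862 in whole and 2388, 2120, 1695 and 2153 in lineage-negative marrow, a gap of 0.79 that became −0.39 with the deposited scaling. Mcm2, a helicase subunit, was 1411, 2520 and 3298 in AML, 3697, 3696, 4288 and 4205 in whole and 8290, 7285, 6166 and 6184 in lineage-negative marrow, and its gap became −1.06. Rrm1 and Mybl2 had gaps of 0.19 and 0.37, which became −0.96 and −0.73. AML 3 was lowest for all 4 genes.

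Transporters and metabolic enzymes made up the rest of the widest gaps below. Slc25a21, a mitochondrial carrier of dicarboxylates, was 0, 1.01 and 5.70 in AML, 212.5, 258, 310.4 and 373 in whole and 379, 401, 403 and 553 in lineage-negative marrow, so AML was at or near the floor. Abcb4, which moves phosphatidylcholine across membranes, was 35.2, 47.03 and 61.8 in AML, 1424, 1452, 1694 and 1807 in whole and 2505, 2472, 2266 and 2815 in lineage-negative marrow. Sphk1, a sphingosine kinase, was 4.52, 12.1 and 18.2 in AML, 418, 436, 593 and 552 in whole and 1618, 1593, 1432 and 1783 in lineage-negative marrow. The AML values of Abcb4 were all above the floor and close together. Slc38a5, an amino acid transporter, and Tlcd4, a membrane protein, had gaps of 4.54 and 4.95. Among ABC transporters as a whole 5 of 39 lay above and 5 below (7 and 5 with the deposited, 5 and 6 with quantile scaling). Those below with TMM include Abcg4, at a gap of 3.82, and Abcb6, a porphyrin transporter, at 1.28.

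The edge of the normal range was set unequally by the 2 normal groups. For members above, the nearest normal sample was a whole marrow in 613 (71.6%) and a lineage-negative marrow in 243 (28.4%), and whole marrow 2 alone set it in 305 (35.6%). Of the 37 members with a gap of at least 1, whole marrow set the edge in 33 (89.2%). For members below, whole marrow set it in 318 (53.4%) and lineage-negative marrow in 278 (46.6%). With the deposited scaling the lineage-negative share was 43.4% above and 40.9% below. The AML edge above was set by AML 6 in 330 members (38.6%), whereas AML 6 was the lowest AML sample in 20.5% of all kept genes. AML 3 was the highest AML sample in 241 members above (28.2%) and in 17.1% of all kept genes. The median SD of log2 values over the AML samples was 0.29 for members above, 0.57 for members below and 0.33 for all kept genes.

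The comparison of the normal groups with each other holds no AML value and was tested (limma, adjusted by the Benjamini-Hochberg method, called at an adjusted p under 0.05 and a log2 difference of at least 1). Of all kept genes, 2245 were higher in lineage-negative marrow (15.6%) and 3656 lower (25.4%). Of the members above, 1 was higher (0.117%) and 228 lower (26.6%), with a median log2 difference of −0.40, beside 0.06 for all kept genes. The rule bears on the counts of members above and below, because it sets AML against the highest or lowest of these same normal values. The counts among members, and the p-values of single members here and in the next paragraph, are therefore not independent of how members were chosen. They describe the members and cannot say whether being a member goes with a difference between the normal groups. The single gene higher was Tnfsf9, the ligand of the co-stimulatory receptor 4-1BB, named after its value was seen, with a log2 difference of 1.26 (SE 0.47, adjusted p = 0.0323 by limma) and only 2 of its 4 lineage-negative samples above all whole marrows. Of the members below, 106 were higher (17.8%) and 107 lower (18%), with a median of 0.08. With the deposited scaling 42 members above were higher and 141 lower, and 209 members below were higher and 65 lower. Of the members above, 19 were higher with quantile scaling, 2 without whole marrow replicate 2 or 3, and 0 without lineage-negative replicate 1.

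Gene lists differed in this normal comparison, counted here over all their kept genes and not over members alone. Of the 11 class II genes 8 were lower in lineage-negative marrow and none higher, H2-Aa by −4.94 (SE 0.43, limma adjusted p = 1.44e-06). Sirpb1c differed by −7.60 (SE 0.54, limma adjusted p = 3.89e-07). On the monocyte and macrophage list 22 of 30 genes were lower in lineage-negative marrow and on the Toll-like receptor list 13 of 18, with none higher on either. Csf1r, at −0.23 (SE 0.18, limma adjusted p = 0.287), and Itgb7, at −0.39 (SE 0.18, limma adjusted p = 0.0755), passed no threshold. Of the lists with members below, the mast cell list had 7 of 11 genes higher in lineage-negative marrow and 1 lower, and the haem list 8 of 11 lower and none higher. Car1 was higher in lineage-negative marrow by 1.84 (SE 0.17, limma adjusted p = 2.47e-06) and Pklr by 2.07 (SE 0.14, limma adjusted p = 3.35e-07). In each of H2-Aa, Sirpb1c, Car1 and Pklr the 4 lineage-negative and the 4 whole marrow samples did not overlap. Klf1, at −0.30 (SE 0.14, limma adjusted p = 0.0699), and Epor, at −0.12 (SE 0.17, limma adjusted p = 0.555), passed no threshold.

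**Figure D5:**
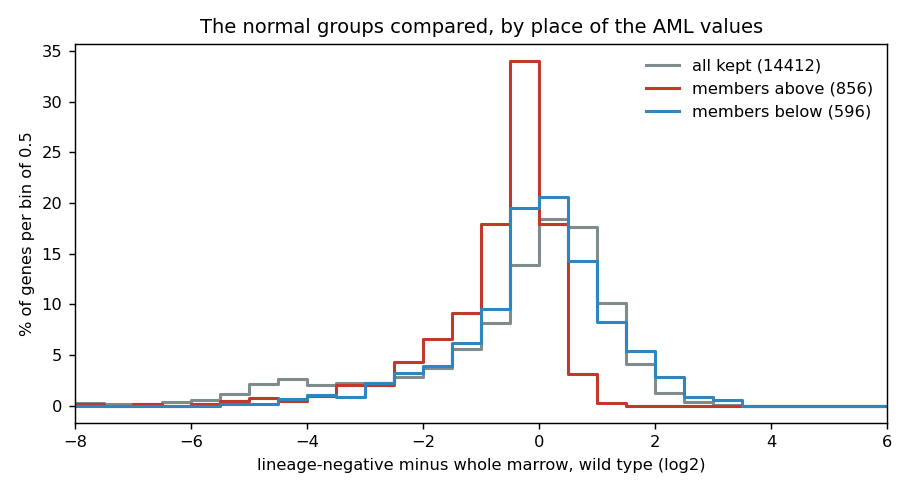
Distribution of the log2 difference between wild-type lineage-negative and whole marrow (% of genes per bin of 0.5) for all 14412 kept genes, the 856 members above and the 596 members below. Members above fall off sharply to the right of 0, with 1 gene called higher and 228 lower, while members below reach into the bin from 3.0, beyond which 2 of all kept genes lie.

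Members lay side by side on chromosomes in places. Of the members above, 173 (20.2%) had a neighbouring kept gene that was also a member above, and 11 runs of at least 3 genes held 35 members. Below these were 92 (15.4%), and 4 runs with 14 members. Members above and below were 5.94% and 4.14% of kept genes, and some neighbours would both be members by position alone. That expected share was not worked out, so these counts cannot say whether members cluster. Coordinates are those of the table, whose build could not be matched to GRCm38. On chromosome 1, Mndal, Ifi211, Ifi203 and Ifi205 lay in a row from 173676692 to 173859377, all of the same interferon-inducible family, with gaps of 0.37, 0.46, 0.23 and 1.57. On chromosome 17, H2-DMb1, Psmb9, Tap1 and Psmb8 lay from 34372046 to 34420429 and H2-Ab1, H2-Aa and H2-Eb1 from 34476663 to 34535649. On chromosome 16, the antiviral genes Parp14, Dtx3l and Parp9 lay from 35653244 to 35792976, with gaps of 0.55, 0.074 and 0.15. On chromosome 6 stood Clec4a1, Clec4a3 and Clec4b1, and elsewhere on it Arl6ip5, Frmd4b and Mitf, the last with a gap of 0.003.

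Below, the run on chromosome 2 from 84669194 to 84824231 joined the eosinophil genes Prg2 and Prg3 to the amino acid transporters Slc43a1 and Slc43a3. Slc43a1 was 72.6, 93.9 and 138 in AML, 2422, 2680, 3392 and 3805 in whole and 743, 943, 940.4 and 988 in lineage-negative marrow. Runs above include related gene copies, between which reads can be shared.

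Promoters were compared by their letters, in windows from 250 bases before to 50 after the start. RefSeq windows matched 692 of the 856 members above (80.8%), 478 of the 596 below (80.2%) and 11467 of 14400 kept gene names (79.6%). The last is under the 80% set as a minimum, so the comparison with all genes is void as a check, and the shares only describe the matched windows. The response element of the Ifi205 promoter was in 6.36% of the windows of members above, 2.09% below and 3.28% of all. AGATAA was in 12.1% below, 6.07% above and 7.26% of all. The ETS motif CCGGAAG was in 8.16% below, 14.6% above and 16.6% of all. CCAAT was in 33.2% above and 39.0% of all, but in 9 of the 11 matched class I members above (81.8%). This list and motif were picked from several, and motif shares of other lists are not reported here. The share therefore cannot be called particular to class I. A ratio of observed to expected CpG of at least 0.6 was found in 58.1% of windows above, 59.0% below and 66.3% of all, and in 10 of the 31 matched members above with a gap of at least 1 (32.3%).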

How the data were processed

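Total RNA of 15 mouse bone marrow samples was extracted with TRIzol and made into stranded total RNA libraries, per the labels. The deposited values are a signal, which the authors made by dividing estimated read counts per gene by 1 DESeq2 size factor per library. The submitters' processing notes name STAR, Partek, DESeq2 and mm10; versions, the counting step and the strand used are not given in the sources used here, so reads of overlapping, antisense or near-identical genes may be mixed. Of 38066 identifiers found in a GRCm38 annotation, 861 had the same start, so the build of the table's coordinates is unsettled and only RefSeq promoters carry GRCm38.p6 coordinates.

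In each library 83.9% to 88.5% of low values were whole multiples of 1 read within 0.02, too few to recover whole reads. Count models were therefore not run. Depth was estimated from that step, and the floor of 3 reads covers counting error only. The table has 38315 genes, 20456 of them protein coding; values were rescaled by TMM (trims of 0.3 and 0.05, own code in Python 3.11), and 6044 protein-coding genes failed the minimum of 10 in 4 samples. Wild-type groups were compared with limma 3.58.1 in R 4.3.3 on log2(value + 1) in the 8 wild-type samples (mean-variance trend, two-sided). On simulated data 200 of 200 changed genes (log2 difference 2) and 3 unchanged genes of 12770 were called in that comparison. The labels number the samples without saying whether marrows were pooled, so p-values measure the spread between these samples, which may be technical.

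The members, the 57 gene lists and the tests were chosen with earlier results of these data known. The text names the 12 members per direction with the largest gap (2 predicted genes skipped above), up to 4 members per list and direction, 7 genotype and homeobox genes, the genes next to the edge and members of runs; exceptions are stated. Values of some genes under this rule are not reported here. Alternatives were the deposited and quantile scaling, pseudocounts of 0.1 and 5, other filters, a minimum gap, leaving out each library, the replicate block and, chosen after seeing the data, each normal group alone as the range and the dendritic list without Cd24a.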

Additional observations from a re-analysis of the deposited data

Results flagged for a closer look

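Samples that stood apart from the rest of their group, by Dixon's criterion at the 95% level, were searched for in 339 groups of values (113 named genes in 3 groups), and 30 were found. Chance flags about 1 in 20 groups.

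AML 3 stood above the other AML samples in class II genes, although every AML sample exceeded every normal one: Cd74 was 128741 (group median 26536), H2-Aa 78665 (17275), H2-Ab1 71881 (13969), H2-Eb1 49266 (10030) and Ciita 8857 (1622). It also stood high in Itgax at 5145, Tlr11 at 1209, Havcr2 at 1094, Bcl2a1d at 1037, Tlr3 at 838, Batf3 at 482, Clec4b1 at 318 and, among members below, Slc38a5 at 20.4. In the same sample the dendritic markers Xcr1, Cd209a and Zbtb46 were 1135, 4812 and 1221, against at most 151, 1625 and 399 in the other AML samples. The dendritic gene Siglech was not high there, at 167 against up to 1961 in the others. Its B cell list summed to 5381 ppm (parts per 1000000 of normalized counts), with Cd79a at 1135, under the 1206 to 1518 of whole marrow. AML 6 stood high in Batf at 1246, Pdcd1 at 1131, Tigit at 431 and Zfpm1 at 492 and low in Csf1r at 4341, with its T and NK cell list at 516 ppm. AML 2 stood high in Ms4a4c at 7167.

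Among the whole marrows, replicate 1 was apart in Dtx3l at 1479, Fcgr2b at 1120 and Tapbp at 2663, replicate 2 in Clec4b1 at 43.8 and Unc93b1 at 4195 and replicate 4 in Bmf at 536. Among the lineage-negative marrows, replicate 1 was apart in Clec4a1 at 35.5 and Ms4a4a at 8.26, replicate 3 in Rrm1 at 6579 and replicate 4 in Batf3 at 1.77 and Slc25a21 at 553. None of these was left out.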

How the results depend on the processing

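Members above numbered 856, and with the deposited scaling 1480, of which 832 were shared. Members below numbered 596, and with the deposited scaling 303, all of them shared. A minimum gap of 1 left 37 above and 169 below. Against whole marrow alone there were 2447 above and 2163 below, and against lineage-negative marrow alone 2747 and 3095 (both chosen after seeing the data). Leaving out 1 library gave 862 to 1170 above, the highest without AML 6, and 606 to 693 below. A shorter range or fewer AML samples can only add members. Between the normal groups, 1 member above was higher in lineage-negative marrow (limma), and 42 with the deposited scaling, 19 with quantile scaling and 0 to 2 with 1 library left out, 0 without lineage-negative replicate 1 and 2 without whole marrow replicate 2 or 3. The 228 lower became 141 with the deposited scaling and 214 to 239 with a library left out. For members below, the 106 higher became 209 and the 107 lower became 65 with the deposited scaling, and 99 to 113 and 100 to 111 with a library left out. The cause of these moves was not tested. With the replicate number as a block the 4 counts were 1, 106, 229 and 108. Same-numbered samples had correlations of deviations of 0.098, 0.175, 0.013 and −0.014. Differently numbered samples were not set beside them, so these values cannot say whether the numbers pair samples. The lineage-negative share of edges, 28.4% above and 46.6% below, was 43.4% and 40.9% with the deposited scaling.

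Gaps of 113 named genes did not leave their side with pseudocounts of 0.1 or 5 or with any library left out. That outcome was fixed in advance and is no check. A pseudocount keeps the order of the values, and leaving out a library cannot narrow a gap. With the deposited scaling 7 turned negative: Cdc6 −0.39, Itga2b −0.083, Mcm2 −1.06, Mcpt8 −0.14, Mybl2 −0.73, Rrm1 −0.96 and Slc43a3 −0.38. With quantile scaling 2 did: Mitf −0.31 and Mndal −0.005. Depth limits members near the floor, among them Tigit, Slc25a21, Epor and Pklr in AML, where few reads set the edge.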

Other observations

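Long non-coding RNAs, which the choice of protein-coding genes leaves out, were set against the same normal range: of 1761 kept by the same filter, 21 (1.19%) lay above and 45 (2.56%) below, beside 5.94% and 4.14% of protein-coding genes. The widest gap below was that of Asb17os, at 4.45, which was listed at 0 to 1.13 in AML, 49.6 to 104 in whole and 45.4 to 58.1 in lineage-negative marrow. Redrum, a long non-coding RNA known from red cell maturation, had a gap of 1.96, with 0.951 to 5.70 in AML, 141 to 314.5 in whole and 25.03 to 60.6 in lineage-negative marrow. AW112010, known from inflamed myeloid cells, lay above with a gap of 0.26 and spread from 398 to 4292 in AML, against 244 to 333 in whole and 111 to 193 in lineage-negative marrow. These 3 were chosen after their values were seen.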
